A study of Mus musculus with 32 samples.

Results

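Hox genes encode homeodomain transcription factors that stand in 4 clusters, HoxA to HoxD, and here every gene of the count tables with a symbol made of Hox, a cluster letter and a number was taken. These were 39 of the 24411 genes of the first table and the same 39 of the 24421 genes of the second. HoxA gave 11 of them on chromosome 6, HoxB 10 on chromosome 11, HoxC 9 on chromosome 15 and HoxD 9 on chromosome 2 (mouse build mm9). By paralog number, which counts the position within a cluster, 8 were anterior (numbers 1 to 3), 15 central (4 to 8) and 16 posterior (9 to 13). In the embryo the order of the genes along a cluster matches the order of their expression from head to tail, so that posterior paralogs mark the hindgut and the tail end of the body. The adult gut keeps part of this code in its epithelium and mesenchyme. In blood formation some Hox genes are active in stem and progenitor cells and fall silent as myeloid cells mature.

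The study followed monocytes that were transferred into mice depleted of gut macrophages, and gene counts of the graft and of graft-derived macrophages from colon and ileum are used here. Recipients were [CD11c-DTR > WT] bone marrow chimeras on the C57BL/6 background, irradiated at an age of 7 to 10 weeks, in which the diphtheria toxin receptor sits on CD11c+ cells of the bone marrow compartment. They received 18 ng of diphtheria toxin per g of body weight for 2 days before the transfer and 9 ng per g every other day afterwards. The groups were the monocyte graft (n = 3), colonic macrophages of day 4 (n = 3), day 8 (n = 3) and day 12 (n = 4) and ileal macrophages of days 4, 8 and 12 (n = 4 each). A further 6 libraries came from colonic macrophages of day 14 in [CX3CR1-DTR > WT] chimeras, where the receptor follows CX3CR1. Donors were described as Cx3cr1 GFP/+ mice carrying CD45.1 and the graft as sorted CD117- CD11b+ CD115+ Ly6C+ bone marrow monocytes, whereas the sample labels of the graft name blood and a different genotype. The study isolated graft-derived cells by CD45.1 and the GFP of CX3CR1 and found them CD11b+ CD64+ Ly6C-, whereas the sample labels name a gate of CD45, CD11b, CD64 and MHCII without Ly6C for every tissue library. Bone marrow chimeras keep their own gut epithelium, stroma and nerves. One more library of colon on day 8, which the study's own list of samples leaves out, was not used in the comparisons. The labels do not say which libraries came from separate mice, so p-values measure the spread between libraries.

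The 2 windows below are shown because their genes moved with tissue in opposite directions on day 8 and because they lie outside annotated exons. Each covers the 250 bases before the start of the transcript that was counted, printed 5′ to 3′ on the strand of the gene (mm9). Capitals mark the letters TTTATG, a sequence that caudal (CDX) homeodomain factors can bind, or CATAAA where it lies on the opposite strand.
Hoxa9, chr6:52177370-52177619, minus strand: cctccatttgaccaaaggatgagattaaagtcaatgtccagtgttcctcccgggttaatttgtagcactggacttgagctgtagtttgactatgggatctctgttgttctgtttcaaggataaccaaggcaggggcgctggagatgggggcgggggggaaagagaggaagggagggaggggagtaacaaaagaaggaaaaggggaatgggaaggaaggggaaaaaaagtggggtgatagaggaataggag
Hoxd4, chr2:74559785-74560034, plus strand: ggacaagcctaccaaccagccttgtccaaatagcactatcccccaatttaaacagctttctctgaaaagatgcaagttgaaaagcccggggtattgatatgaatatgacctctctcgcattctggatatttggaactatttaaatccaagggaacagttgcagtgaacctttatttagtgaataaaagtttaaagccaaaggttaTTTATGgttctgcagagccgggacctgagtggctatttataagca
Hoxd4 held the letters once, 45 bases before the start, and Hoxa9 held none. Over all genes 2379 of 24343 windows (9.8%) held the letters on either strand, and 8 of the 39 Hox windows did. They stood in 3 of the 9 Hox genes that were higher in colon on day 8 and in 2 of the 10 that were higher in ileum. A match is a description of the sequence and no evidence of binding.

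Levels are given as normalized reads, which are counts per 10000000 mapped reads of a library. The 25 libraries of CD11c-DTR recipients and the graft held 591817 to 5228664 reads on genes and those of CX3CR1-DTR recipients 1223772 to 4218027. A count of 3, taken as the floor of detection, equalled 3.51 to 27.65 normalized reads. Tests used edgeR's quasi-likelihood fit of all 11842 genes that reached 50 normalized reads in 3 or more libraries, and an adjusted p under 0.05 passed. Log2 fold changes stand with their standard errors, and of the 39 Hox genes 20 entered this fit, with 6 of HoxA, 8 of HoxB, 3 of HoxC and 3 of HoxD. Since 5 of them entered through ileal libraries alone (Hoxb2, Hoxb3, Hoxc4, Hoxc6 and Hoxc8) and 2 through colonic libraries alone (Hoxa13 and Hoxd11), these 7 could be tested only because they were high in 1 tissue, and counts are also given for the other 13. Among these 13, Hoxb5, Hoxb6, Hoxb7 and Hoxd4 reached 50 in 9, 9, 5 and 5 ileal and 1, 2, 1 and 1 colonic libraries. They too needed ileal libraries to enter, so counts over the 13 genes are not free of the filter on the ileal side.

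The sorted macrophage libraries also carried RNA of other cells, and this moved with the groups compared. All 16 genes of an epithelial marker list (among them Epcam, Krt8 and Cdh17) were above the floor in every tissue group, while 12 of the 16 were at the floor in every graft library. Their summed level was 3.04 to 3.41% of the reads on genes in colon on day 4, 2.83 to 3.16% on day 8 and 2.40 to 3.49% on day 12, against 0.871 to 3.01%, 0.730 to 1.34% and 0.473 to 1.47% in ileum. CX3CR1-DTR libraries held 2.71 to 3.25%. Macrophage markers (11 of 12 in the table, among them Csf1r and C1qa) ran the other way, with 0.0895 to 0.307% in colon and 0.254 to 1.25% in ileum on day 8 and 0.126 to 0.392% and 0.523 to 1.78% on day 12. Pan-leukocyte markers such as Ptprc summed to 1.21 to 1.39% in the graft, 0.0327 to 0.108% in colon and 0.111 to 0.455% in ileum on day 8. Smooth muscle markers summed to 0.0212 to 0.0305% in colon and 0.0281 to 0.124% in ileum on day 8, endothelial markers to 0.0105 to 0.0176% and 0.0699 to 0.169%, and fibroblast markers to 0.0190 to 0.0529% and 0.0261 to 0.0695%. On that day B cell markers summed to 0.000710 to 0.00197% in colon and 0.0139 to 0.0438% in ileum, T cell markers to 0.000367 to 0.000592% and 0.00347 to 0.00854%, enteric neuron and glia markers to 0.00122 to 0.00225% and 0.00710 to 0.0125%, and hematopoietic progenitor markers to 0.00309 to 0.00505% and 0.00679 to 0.0178%. These 4 lists, and the pan-leukocyte and endothelial lists, were higher in ileum with no overlap, and the part of all these lists in the Hox differences was not tested. In bulk RNA, fewer cells of a type and less RNA per cell cannot be told apart. Ileum day 4 replicates 2 and 3, the pair of the earliest experiment by the dates in the titles, stood apart, with 3.01% and 2.95% epithelial reads where replicates 1 and 4 had 0.871% and 0.975%. Results that rest on this pair are given with and without it.

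The monocyte graft had nearly no Hox RNA apart from Hoxb4. The 39 genes summed to 206 to 252 normalized reads per graft library, and 1 or 2 genes per library were above the floor. HoxC and HoxD were at 0 in all 3 libraries. Hoxb4, a regulator of hematopoietic stem cell expansion, had 208, 223 and 167 normalized reads. Per kb of transcript it averaged 77.8 ± 11.2 (SD, n = 3), and the next gene, Hoxb3, 4.71 ± 2.64, although reads of this protocol come from the 3′ ends and a value per kb orders the genes only roughly. Hoxa9 and Hoxa10, which act in blood progenitors, were at 0, 0 and 2.42 and at 0, 0 and 0.

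**Figure D1:**
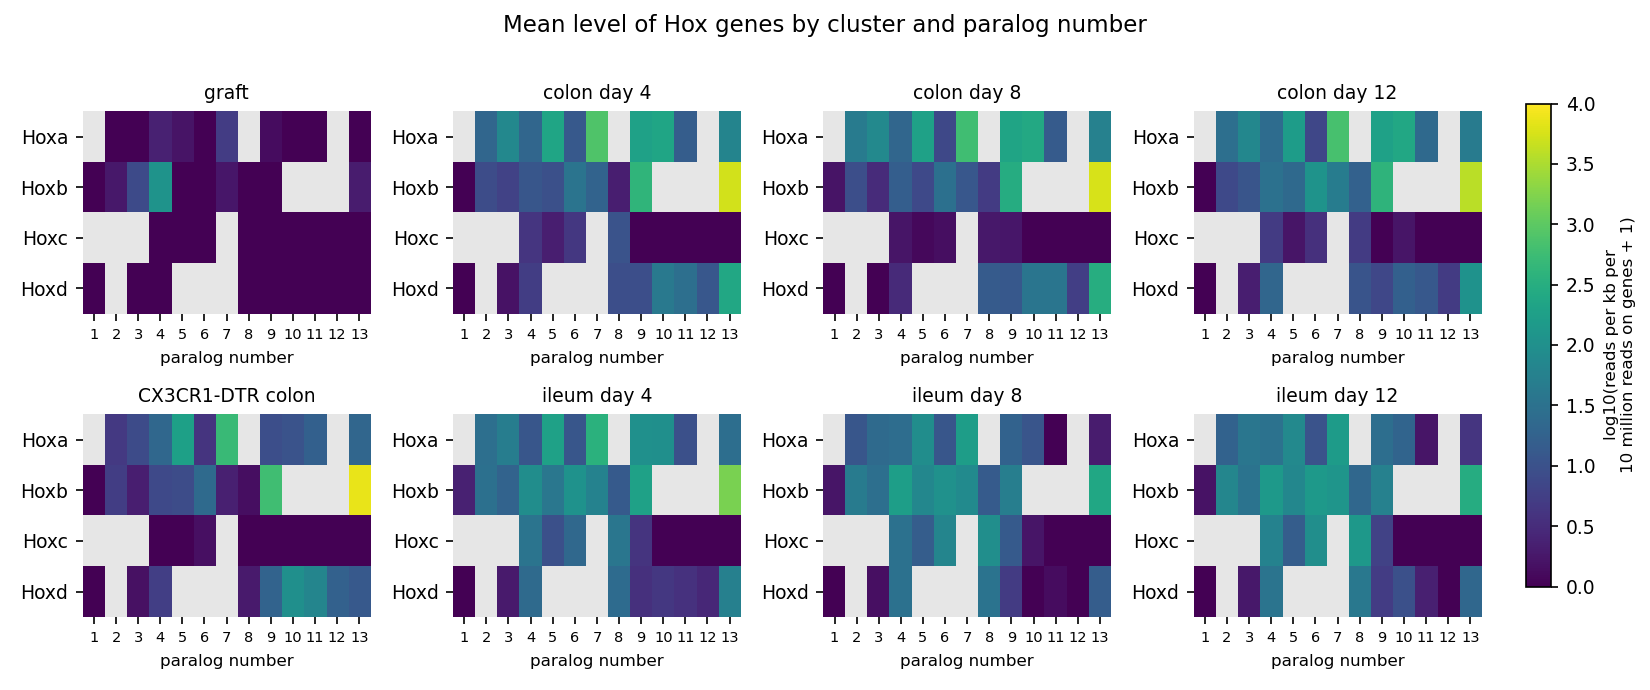
Mean level of the Hox genes in 8 groups, one panel per group, with the cluster on the vertical axis, the paralog number on the horizontal axis and the color giving log10 of reads per kb and 10000000 reads on genes, plus 1 (grey: no such gene, or not reported here). Hoxb13 is the brightest cell of every colonic and ileal panel, HoxC is darker in the graft and colonic panels than in those of the ileum, and Hoxb4 is the brightest cell in the graft.

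The macrophage libraries from the gut, which also carried RNA of other cells, held many times more Hox RNA than the graft as early as day 4. The sum was 6513 to 8547 normalized reads in colon and 1648 to 5689.6 in ileum on that day, and 17 to 25 and 11 to 23 of the 39 genes per library were above the floor. Against colon on day 4, 14 of the 20 tested Hox genes were higher than in the graft and 1 was lower, and 60.4% of all genes passed this test (35.9% higher, 24.5% lower). Against ileum on day 4, 18 passed and all were higher, with 56.7% of all genes passing (36.2% higher, 20.5% lower), and 18 passed as well with ileum replicates 1 and 4 alone. The median of all genes tested was 0.21 and 0.23 on the log2 scale. Among the 20 tested Hox genes only Hoxb4 reached the level of the filter in graft libraries. The others entered the fit through tissue libraries alone and could be tested only because they were high there. The counts of higher Hox genes are therefore no support for a pattern, whereas the sums over all 39 genes do not depend on the filter. Because most Hox genes were at the floor in the graft, their increase can be bounded only from below. Hoxb13 was at 2.81, 0 and 0 normalized reads in the graft and 4503, 3969.6 and 4177 in colon on day 4, at least 588-fold higher than the floor of the graft. The bounds were 129.8-fold for Hoxa7, 96.0-fold for Hoxb9, 53.4-fold for Hoxd13 and 52.4-fold for Hoxa9. In ileum on day 4 the bounds were 163-fold for Hoxb13 and 53.8-fold for Hoxa7, and with replicates 1 and 4 alone they were 55.3-fold and 30.6-fold. The epithelial list went from 0.000577 to 0.00102% in the graft to the levels given above, and its part in these increases was not tested.

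Hoxb4 went the other way in colon. It had 16.1, 23.7 and 10.2 normalized reads in colon on day 4, below the graft (log2 fold change -3.26 ± 0.54, adjusted p = 1.6e-05). In ileum on day 4 it had 172, 40.6, 82.9 and 193, overlapping the graft (log2 fold change -0.31 ± 0.43, adjusted p = 0.56), and the 2 lower values were those of the pair that stood apart. Without ileum day 4 replicate 2 the log2 fold change was 0.05, and with replicates 1 and 4 alone it was 0.25. Hoxb4 was also lower than in the graft in colon on day 12 (log2 fold change -1.64 ± 0.38, adjusted p = 0.002) and in CX3CR1-DTR colon (-3.68 ± 0.39, adjusted p = 9e-07). These comparisons share the graft libraries. Pan-leukocyte markers summed to 1.21 to 1.39% in the graft, 0.0277 to 0.0759% in colon and 0.0883 to 0.353% in ileum on day 4. Macrophage markers summed to 0.183 to 0.238%, 0.0659 to 0.187% and 0.178 to 0.718% in the same groups. The part of cell make-up in the Hoxb4 differences was not tested.

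Colon and ileum differed in Hox genes on day 8, with the tested posterior genes higher in colon. Of the 20 tested genes 19 passed, with 9 higher in colon and 10 higher in ileum, where 35.0% of all genes passed (16.7% higher in colon, 18.3% higher in ileum). The libraries of both tissues did not overlap for 19 of the 20 genes, Hoxb6 being the exception, against 39.3% of all genes. For Hoxc4 this rested on 2.61 in colon against 3.37 in ileum, both below the floor. Of the 13 genes that did not enter through 1 tissue alone, 12 passed, 7 higher in colon and 5 in ileum, and 12 had no overlap between libraries. Among these 13 the 5 posterior genes were all higher in colon (median log2 fold change 4.34), and the anterior Hoxa3 was higher there too. Of the 7 central genes 5 were higher in ileum and 1 in colon (median -3.02). Those higher in ileum, all but Hoxb4, needed ileal libraries to enter the fit, so their directions are no support for a pattern. The median over all genes tested was -0.05. On day 12, 17 of the 20 passed, 10 higher in colon and 7 higher in ileum, with 32.5% of all genes passing (15.3% and 17.2%), and of the 13 genes 10 passed, 8 higher in colon and 2 in ileum. The 5 posterior genes among them were again all higher in colon (median 2.90), while of the 7 central genes 2 were higher in colon and 2 in ileum (median -0.68). Without colon day 12 replicate 4 the count over the 20 genes fell to 11. Of the 20 genes 11 had no overlap between libraries, and of the 13 genes 7 had none, against 30.5% of all genes.

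**Figure D2:**
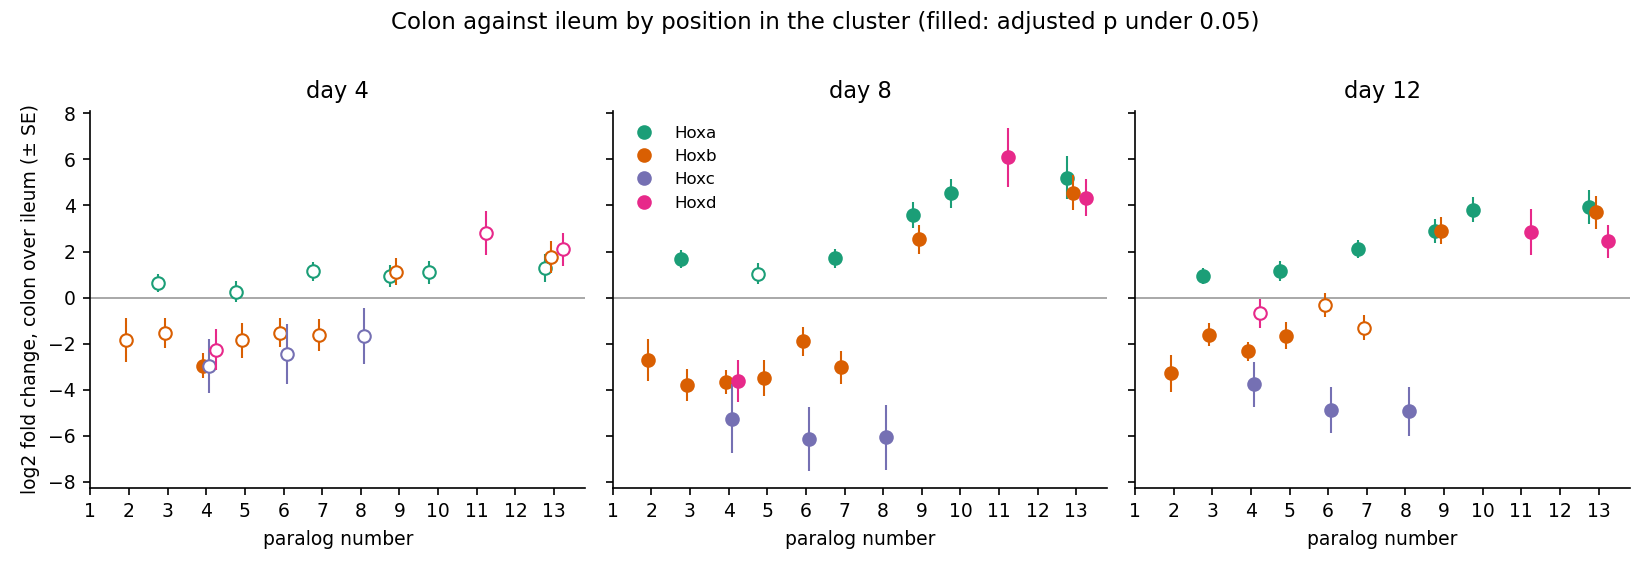
Log2 fold change of colon over ileum with its standard error for the 20 tested Hox genes on days 4, 8 and 12, by paralog number, with the clusters in colors and filled points for adjusted p under 0.05. On days 8 and 12 the tested HoxA genes lie above 0 (Hoxa5 on both days and Hoxa3 on day 12 were below 0 when scaled to epithelial markers, which moved the median of all genes to -1.69), HoxC lies below 0, HoxB changes sign between Hoxb7 and Hoxb9, and HoxD between Hoxd4 and Hoxd11.

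In HoxA all 6 tested genes had positive log2 fold changes toward colon on days 8 and 12, although those of Hoxa5 on both days and of Hoxa3 on day 12 were negative when scaled to epithelial markers, a setting that moved the median of all genes to -1.69. Hoxa13, the most posterior member and a patterning gene of hindgut and limb, had 40.5, 47.0 and 51.5 normalized reads in colon on day 8 and 2.71, 0, 0 and 0 in ileum. It was at least 4.82-fold higher in colon than the ileal floor (adjusted p = 0.00042). The day 12 values were 11.7, 46.7, 46.3 and 29.7 against 2.26, 7.52, 0 and 0, at least 4.43-fold (adjusted p = 0.0008). No ileal library of either day reached a colonic one.

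Hoxa10, which acts in uterus, limb and blood progenitors, had 280.3, 465 and 322 normalized reads in colon on day 8 and 10.8, 27.0, 13.4 and 0 in ileum (log2 fold change 4.52 ± 0.62, adjusted p = 0.00013). On day 12 the values were 372, 374, 313 and 254 against 11.3, 37.6, 26.0 and 14.8 (log2 fold change 3.82 ± 0.55, adjusted p = 0.00022). Colon was above ileum in every library of both days. Hoxa9 had 385, 480.2 and 470.5 against 51.5, 60.7, 10.0 and 0 on day 8 (log2 fold change 3.59 ± 0.55, adjusted p = 0.00017) and 405, 439, 378 and 272 against 38.5, 82.7, 52.0 and 22.2 on day 12 (log2 fold change 2.89 ± 0.50, adjusted p = 0.00045). It too showed no overlap between tissues.

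Hoxa7 was the HoxA gene with the highest level per kb in colon, 380.1 ± 25.4 normalized reads per kb on day 8. It had 696, 793 and 731 normalized reads in colon and 168, 138, 97.0 and 292 in ileum on day 8 (log2 fold change 1.71 ± 0.41, adjusted p = 0.0033), and 926, 676, 967 and 625 against 83.8, 248, 166 and 182 on day 12 (log2 fold change 2.13 ± 0.39, adjusted p = 0.00062). The colonic libraries were all above the ileal ones. Hoxa5, needed for lung and gut maturation, had 229.6, 274 and 188 in colon and 94.9, 111, 117 and 47.6 in ileum on day 8, and the difference did not pass (log2 fold change 1.04 ± 0.46, adjusted p = 0.079). By day 12 it had 321, 71.6, 164 and 183 against 20.4, 109, 117 and 66.5 and passed narrowly (log2 fold change 1.15 ± 0.43, adjusted p = 0.043), with overlapping libraries. This call was lost without colon day 8 replicate 2, without colon day 12 replicates 1, 3 or 4 and without ileum day 12 replicates 1 or 4, where the log2 fold change ran from 0.85 to 1.15.

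Hoxa3, a patterning gene of thymus and parathyroid, had 115, 157 and 101 in colon against 29.8, 13.5, 33.5 and 44.2 in ileum on day 8 (log2 fold change 1.68 ± 0.40, adjusted p = 0.0035). On day 12 it had 175, 71.6, 104 and 87.4 against 38.5, 63.9, 41.6 and 62.1 at the edge of the threshold (log2 fold change 0.93 ± 0.35, adjusted p = 0.05), and leaving out any 1 of 18 of the 25 libraries, colon day 12 replicate 1 among them (0.74), lost that call. The span of its transcript covers Hoxa4, Hoxa5 and Hoxa6 on the same strand, so reads of these genes cannot be kept fully apart. Hoxa2, Hoxa4, Hoxa6 and Hoxa11 had too few reads to be tested in these groups, with highest counts of 38, 26, 5 and 30 per library.

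HoxB split in the middle of the cluster among the tested genes. Hoxb13, its most posterior member and a gene of hindgut and prostate, had the highest level per kb of all Hox genes in every colonic group, 3697 ± 502 normalized reads per kb on day 8. Hoxa7 came next with 380.1 ± 25.4, far below it relative to the spread, while Hoxd13 (197 ± 42.2) and Hoxb9 (188 ± 50.9), next in order, lay within each other's spread. Hoxb13 ranked first in each ileal group too. It had 894 ± 941, 139 ± 116 and 165 ± 117 normalized reads per kb on days 4, 8 and 12, with the next gene inside its spread. Its normalized reads were 5194, 4081 and 5245 in colon and 198, 371, 161 and 0 in ileum on day 8 (log2 fold change 4.54 ± 0.76, adjusted p = 0.00026). On day 12 they were 3779, 2438, 2086 and 3792 against 65.7, 417, 138 and 244 (log2 fold change 3.70 ± 0.71, adjusted p = 0.00075). The lowest colonic library exceeded the highest ileal library on both days.

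Hoxb9, a patterning gene of the rib cage, followed the same direction, with 371, 506 and 646 in colon and 51.5, 105, 104 and 37.4 in ileum on day 8 (log2 fold change 2.53 ± 0.62, adjusted p = 0.0038). On day 12 the values were 755, 504, 722 and 602 against 72.4, 150.3, 91.0 and 26.6 (log2 fold change 2.90 ± 0.59, adjusted p = 0.0012). No library overlapped.

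The HoxB genes from number 2 to 7 were higher in ileum on day 8. All but Hoxb4 needed ileal libraries to enter the fit, so the ileal side of the HoxB split rests on Hoxb4. Hoxb4 had 37.1, 18.3 and 16.4 normalized reads in colon and 263, 351, 298 and 71.4 in ileum on day 8 (log2 fold change -3.66 ± 0.51, adjusted p = 0.00012) and 72.0, 59.2, 32.9 and 21.4 against 222, 188, 252 and 159.7 on day 12 (log2 fold change -2.33 ± 0.41, adjusted p = 0.00051). Ileal values spread around those of the graft and within each day lay above all colonic ones. Hoxb5, which has a role in enteric neural crest, had 6.75, 13.05 and 4.68 against 81.3, 67.4, 66.9 and 71.4 on day 8 (log2 fold change -3.48 ± 0.78, adjusted p = 0.0022). Its day 12 values were 58.4, 28.0, 13.4 and 8.25 against 88.3, 56.4, 104 and 44.4, and the tissues overlapped through colon replicate 1 (log2 fold change -1.65 ± 0.59, adjusted p = 0.038). That call was lost without colon day 12 replicates 2, 3 or 4 and without ileum day 12 replicates 1 or 3, at log2 fold changes from -1.69 to -1.36.

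Hoxb2, a hindbrain patterning gene, had 16.9, 5.22 and 3.51 in colon and 43.4, 50.6, 26.8 and 40.8 in ileum on day 8 (log2 fold change -2.70 ± 0.92, adjusted p = 0.026), a call lost without colon day 8 replicate 3 (-2.51) or replicate 4 (-2.23). The day 12 values were 5.84, 6.23, 4.87 and 8.25 against 18.1, 86.4, 75.4 and 62.1 (log2 fold change -3.29 ± 0.80, adjusted p = 0.0036). Colonic libraries held few reads of Hoxb2, and no library overlapped. Hoxb3 was at the floor in colon on day 8 (3.38, 7.83 and 2.34) and had 70.5, 64.1, 30.12 and 37.4 in ileum, at least 7.06-fold higher (adjusted p = 0.00054). On day 12 the values were 42.8, 18.7, 14.6 and 9.90 against 40.8, 56.4, 70.2 and 63.6 (log2 fold change -1.61 ± 0.51, adjusted p = 0.018), and the call was lost without colon replicate 3 (-1.50), colon replicate 4 (-1.39) or ileum replicate 4 (-1.49).

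Hoxb6 had 13.5, 49.6 and 11.7 in colon and 114, 47.2, 63.6 and 64.6 in ileum on day 8 (log2 fold change -1.90 ± 0.64, adjusted p = 0.025), with overlapping libraries. This call was lost without colon replicate 2 (-1.65), colon replicate 4 (-1.50) or ileum replicate 1 (-1.62). By day 12 it had 237, 46.7, 40.2 and 57.7 in colon, with replicate 1 far above the others, and 40.8, 128, 161 and 88.7 in ileum, and the difference did not pass (log2 fold change -0.32 ± 0.51, adjusted p = 0.68). Hoxb7 had 6.75, 15.7 and 4.68 against 46.1, 43.8, 43.5 and 88.4 on day 8 (log2 fold change -3.02 ± 0.71, adjusted p = 0.0028). On day 12 it had 74.0, 28.0, 37.8 and 6.60 against 31.7, 128, 125 and 50.3 and did not pass (log2 fold change -1.30 ± 0.54, adjusted p = 0.067). The day 12 difference of Hoxb7 passed without colon replicate 1 (-1.74) or ileum replicate 1 (-1.54). Hoxb1 and Hoxb8 were too low to be tested, with highest counts of 3 and 42.

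**Figure D3:**
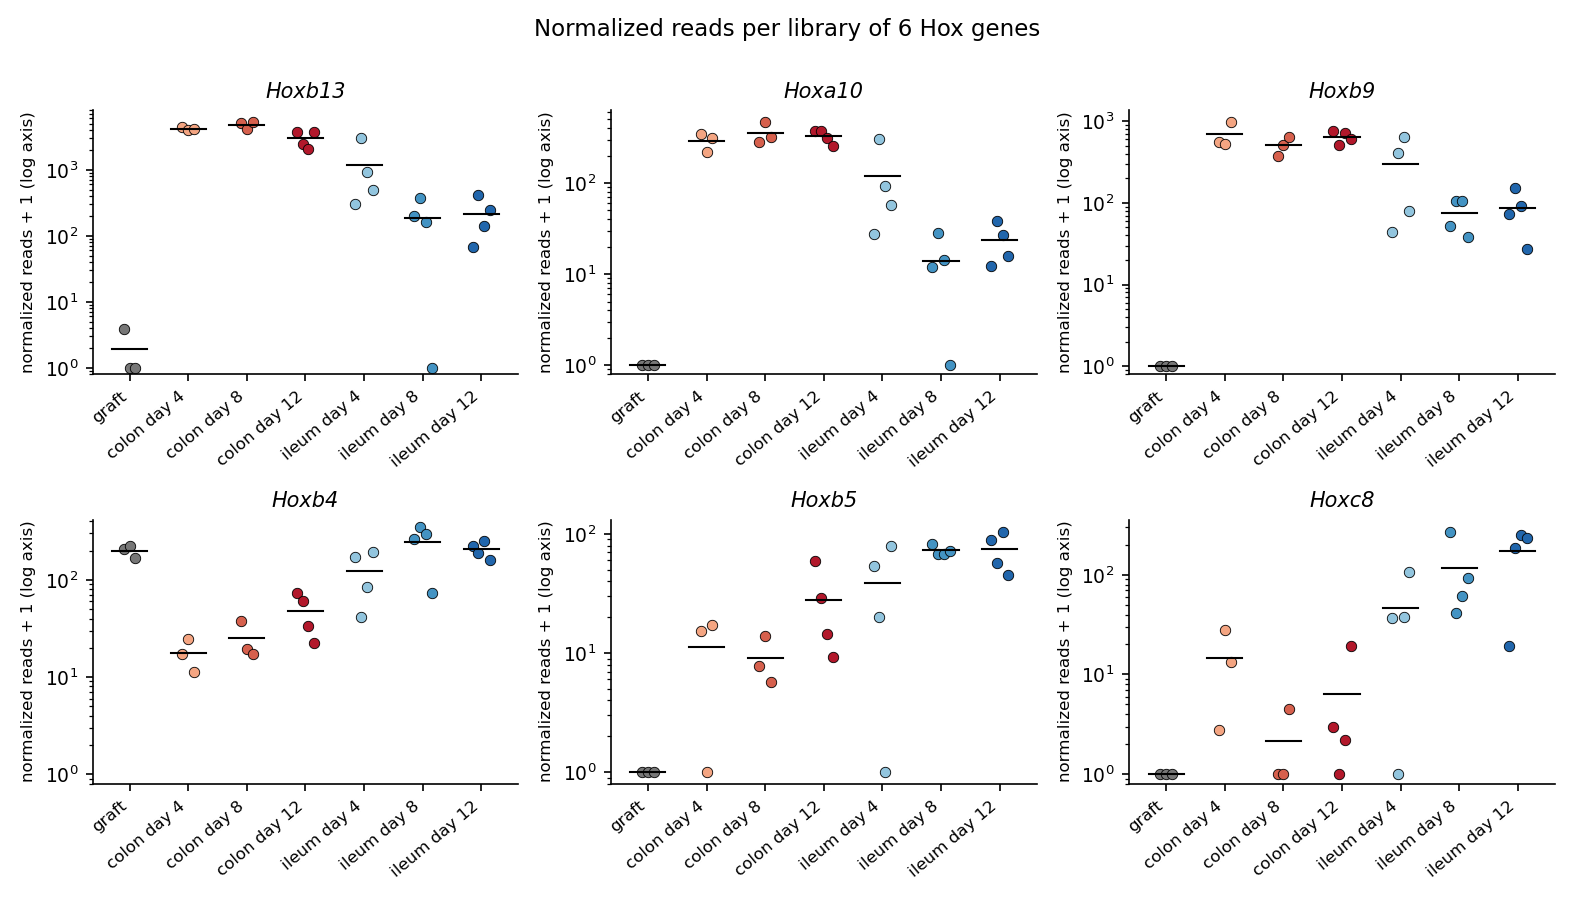
Normalized reads plus 1 on a log axis in each library of the graft, colon and ileum by day, one panel per gene for 6 Hox genes, with points for libraries and lines for the group means. Hoxb13, Hoxa10 and Hoxb9 sit higher in colon than in ileum on days 8 and 12, and Hoxb4, Hoxb5 and Hoxc8 have lower means, with the ileum of day 4 widely spread.

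The 9 HoxC genes together had 0 to 8.19 normalized reads per library in colon and 80.9 to 469 in ileum on day 8, and 3.89 to 34.6 and 45.3 to 528 on day 12, given here without a test. The 3 tested members all entered the fit through ileal libraries alone, so their calls are no support for a pattern of the cluster. Hoxc8, a patterning gene of the thoracic skeleton, had 0, 0 and 3.51 normalized reads in colon on day 8, at the floor, and 271, 40.5, 60.2 and 91.8 in ileum, at least 16.2-fold higher (adjusted p = 0.0029). Its day 12 values were 1.95, 0, 1.22 and 18.1 against 18.1, 184, 252 and 235 (log2 fold change -4.93 ± 1.06, adjusted p = 0.0017). The tissues touched only through colon replicate 4 and ileum replicate 1. Hoxc6 had 0, 0 and 1.17 in colon and 114, 30.3, 46.9 and 23.8 in ileum on day 8, at least 7.50-fold higher (adjusted p = 0.0024). On day 12 its values were 0, 0, 1.22 and 8.25 against 13.6, 67.7, 107 and 124 (log2 fold change -4.86 ± 1.00, adjusted p = 0.0013).

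Hoxc4 had 0, 2.61 and 0 in colon and 62.4, 3.37, 23.4 and 30.6 in ileum on day 8, at least 4.18-fold higher (adjusted p = 0.0098), and without colon replicate 4 this call was lost (adjusted p = 0.067). The day 12 values were 1.95, 6.23, 3.65 and 6.60 against 6.79, 75.2, 114 and 54.7 (log2 fold change -3.77 ± 0.98, adjusted p = 0.0063). The 6 other HoxC genes were too low to test. Hoxc5 reached 18 counts in its highest library and Hoxc9 reached 12, Hoxc10 had at most 1 count, and Hoxc11, Hoxc12 and Hoxc13 were at 0 in all 25 libraries. The 3 most posterior HoxC genes were therefore not detectable at this depth.

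Of the 3 tested HoxD genes, Hoxd13 and Hoxd11 were higher in colon and Hoxd4 in ileum on day 8. Hoxd11 entered the fit through colonic libraries alone, and Hoxd4 reached the filter in 5 ileal libraries and 1 colonic one. Only Hoxd13 is free of this limit, so these calls are no support for a split of the cluster. Hoxd13, a patterning gene of digits and hindgut, had 520.0, 371 and 572 normalized reads in colon and 43.4, 30.3, 3.35 and 0 in ileum on day 8 (log2 fold change 4.34 ± 0.80, adjusted p = 0.00058). By day 12 it had 167, 118, 37.8 and 325 against 4.53, 56.4, 20.8 and 32.5 (log2 fold change 2.44 ± 0.72, adjusted p = 0.013), and without colon replicate 4 the difference did not pass (1.72, adjusted p = 0.077). Colon was above ileum in every library of day 8, and on day 12 colon replicate 3 lay within the ileal range.

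Hoxd11, a patterning gene of the forearm, had 125, 67.8 and 69.1 in colon on day 8 and 2.71, 0, 0 and 0 in ileum, at least 9.07-fold higher in colon (adjusted p = 0.0015). On day 12 it had 60.3, 0, 3.65 and 49.5 against 4.53, 0, 0 and 5.91 (log2 fold change 2.85 ± 0.99, adjusted p = 0.033). That call was lost without colon replicates 1 or 4 or ileum replicates 1, 2 or 3, at log2 fold changes from 2.33 to 3.05. It was lost as well with the experiment as a block (2.56, adjusted p = 0.057), with the compared groups alone (2.86, adjusted p = 0.096) and with limma (0.49, adjusted p = 0.092). Hoxd4 leaned to ileum on day 8 with 0, 5.22 and 4.68 in colon and 81.3, 47.2, 23.4 and 13.6 in ileum (log2 fold change -3.61 ± 0.92, adjusted p = 0.0051), and on day 12 it had 85.6, 9.34, 26.8 and 9.90 against 6.79, 67.7, 65.0 and 50.3 and did not pass (log2 fold change -0.68 ± 0.64, adjusted p = 0.46). Without colon day 12 replicate 1 the day 12 log2 fold change of Hoxd4 was -1.51, which did not pass either. The span of Hoxd4 overlaps that of Hoxd3. Of the other HoxD genes Hoxd1 had no read in any of the 25 libraries, Hoxd3 at most 4, Hoxd8 23, Hoxd9 22, Hoxd10 35 and Hoxd12 18.

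The make-up of the Hox reads is described here without a test. Posterior genes held a median of 81.5% of all Hox reads in colon on day 4, 85.0% on day 8 and 75.4% on day 12. In ileum they held 52.1%, 20.8% and 22.07%. Their share in the ileal libraries of day 4 was 29.9, 76.2, 62.6 and 41.5% in replicates 1 to 4, so that the pair that stood apart was highest. Central genes held 71.5% and 66.3% in ileum on days 8 and 12, and HoxC 15.7% and 19.3%, against 0.0345% and 0.176% in colon. On day 8 the posterior share ran from 80.8 to 86.6% in colon and from 6.99 to 35.5% in ileum, with no overlap. Among the posterior genes Hoxb13 had the most reads in every colonic library, so the colonic share rests largely on this gene.

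**Figure D4:**
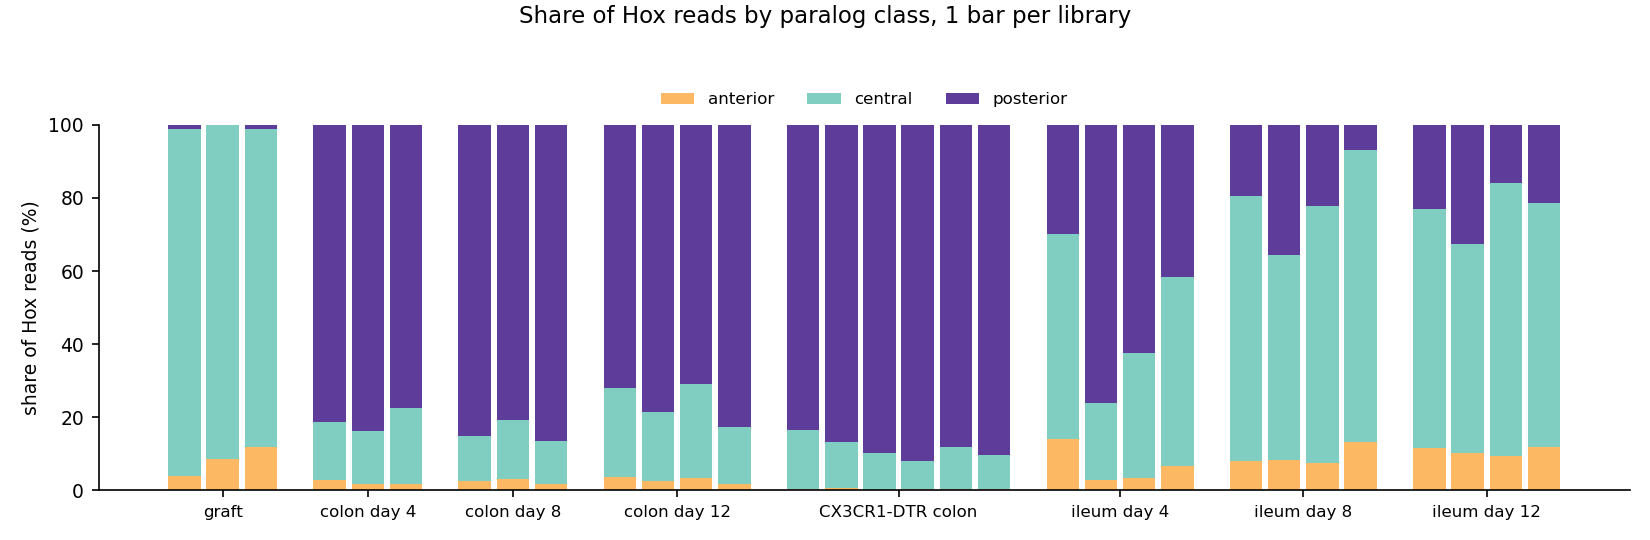
Share of all Hox reads held by anterior, central and posterior genes in each library, in percent, as 1 stacked bar per library with the groups along the axis. Posterior genes hold the most in all colonic libraries and central genes in the ileal libraries of days 8 and 12.

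Since the epithelial list was higher in colon, Hox reads were also set against it. All Hox genes together gave a median of 40.4 reads per 1000 reads on the epithelial list in colon and 26.6 in ileum on day 8, and 36.7 and 32.6 on day 12. Hoxb13 gave 25.5 and 3.87 on day 8 and 17.8 and 3.55 on day 12. With the reads on this list as the library size, a setting chosen after seeing the data, the fold changes of all genes moved toward ileum alike, their median from -0.05 on day 8 and -0.01 on day 12 to -1.69 on both days. Of the 20 genes 16 then passed on day 8 (6 higher in colon, 10 higher in ileum) and 14 on day 12 (4 and 10), and Hoxb13, Hoxa10 and Hoxa13 were still higher in colon on both days. Hoxa3, Hoxa7 and Hoxb9 no longer passed on day 8, nor did Hoxa3, Hoxa5, Hoxa7, Hoxa9, Hoxd11 and Hoxd13 on day 12. Relative to the median of all genes Hoxa5 was at 1.07 on day 8 and 1.34 on day 12 under this setting, against 1.09 and 1.16 before, and Hoxa3 on day 12 at 0.97 against 0.94. The part of epithelial RNA in these differences was not tested.

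Within the experiments given by the title dates, the day 8 and 12 directions could be compared in 5 pairs of groups of 1 or 2 libraries. Of the 20 tested genes 9 were higher in colon in all 5 (the 6 HoxA genes, Hoxb9, Hoxb13 and Hoxd13) and 7 were higher in ileum in all 5 (Hoxb2, Hoxb3, Hoxb4, Hoxb7 and the 3 HoxC genes). The other 4 turned in 1 pair each. In the earliest experiment of day 12, with 1 library per tissue, Hoxb5 had 58.4 normalized reads in colon and 56.4 in ileum, Hoxb6 had 237 and 128, and Hoxd4 had 85.6 and 67.7. Hoxd11 had 1.83 in colon and 2.26 in ileum, both at or below the floor, in experiment 2 of day 12. Hoxa13 and Hoxd11 entered the fit through colonic libraries alone and Hoxb2, Hoxb3 and the 3 HoxC genes through ileal ones, so their directions are no support. Among the 13 other genes, Hoxa3, Hoxa5, Hoxa7, Hoxa9, Hoxa10, Hoxb9, Hoxb13 and Hoxd13 were higher in colon in all 5 pairs, and Hoxb4 and Hoxb7 in ileum. Hoxb7 reached the filter in 5 ileal libraries and 1 colonic one, so its direction is no support either.

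On day 4 the number of Hox genes that passed depended on the pair of ileal libraries that stood apart. With all libraries 1 of 20 genes passed, Hoxb4 (colon 16.1, 23.7 and 10.2, ileum 172, 40.6, 82.9 and 193, log2 fold change -2.95 ± 0.54, adjusted p = 0.019), where 3.18% of all genes passed (0.524% higher in colon, 2.66% higher in ileum). At an unadjusted p under 0.05 there were 12 of 20, against 21.8% of all genes. Libraries did not overlap for 7 of 20, and for 5 of the 13 genes that did not enter through 1 tissue alone, against 14.2% of all genes. The Hoxb4 call was lost without any 1 of the 3 colonic libraries or without ileum replicates 1 or 4, at log2 fold changes from -3.30 to -2.65. Hoxb13 had 4503, 3969.6 and 4177 in colon and 307, 2978, 912 and 485 in ileum and did not pass (log2 fold change 1.75 ± 0.69, adjusted p = 0.13). The colonic libraries came from experiments 2 and 3 and the ileal ones from 1 and 2, and the difference passed with the experiment as a block (2.73, adjusted p = 0.021), with limma (2.30, adjusted p = 0.034) and without ileum replicate 2 (2.77, adjusted p = 0.009). Its libraries did not overlap, and ileum replicate 2 lay nearer to the colonic libraries than to the other ileal ones. Without ileum replicate 2 alone 8 of the 20 genes passed, against 17.6% of all genes. With ileum replicates 1 and 4 alone, 13 of the 20 genes passed, 7 higher in colon and 6 higher in ileum, against 25.9% of all genes, and Hoxb13 had a log2 fold change of 3.39 (adjusted p = 0.0028). Hoxa10 gave 26.4, 301, 92.2 and 57.1 and Hoxd13 19.8, 199, 27.6 and 57.1 in the ileal libraries, each with its highest value in replicate 2.

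In colon no Hox gene passed between days 4 and 12, and no gene of all 11842 did with edgeR. At an unadjusted p under 0.05 there were 3 Hox genes and 245 genes in all, and neither DESeq2 nor limma called a Hox gene. In ileum 3 of the 20 passed, all lower on day 12, where 2.30% of all genes passed (2.02% lower). These were Hoxa10 (26.4, 301, 92.2 and 57.1 on day 4, 11.3, 37.6, 26.0 and 14.8 on day 12, log2 fold change -2.54 ± 0.56, adjusted p = 0.022), Hoxa9 (59.4, 359, 166 and 136 and 38.5, 82.7, 52.0 and 22.2, log2 fold change -1.96 ± 0.51, adjusted p = 0.042) and Hoxa13 (9.91, 25.6, 18.4 and 21.4 and 2.26, 7.52, 0 and 0). For Hoxa13 every library of day 12 was at the floor, and its level on day 4 was at least 2.49-fold the day 12 floor (adjusted p = 0.048). Hoxb13 had 307, 2978, 912 and 485 and 65.7, 417, 138 and 244 and did not pass (log2 fold change -2.43 ± 0.68, adjusted p = 0.06). It passed with DESeq2 (-2.42, adjusted p = 0.017), with no filter (-2.47, adjusted p = 0.041), and without ileum day 4 replicates 1 (-2.75) or 4 (-2.69), ileum day 8 replicate 4 (-2.44) or ileum day 12 replicate 2 (-2.85), and it was at -1.42 without ileum day 4 replicate 2. The calls of Hoxa10, Hoxa9 and Hoxa13 were lost without ileum day 4 replicate 2, with log2 fold changes of -1.31 for Hoxa10 and -1.29 for Hoxa9, and with limma, with the compared groups alone and with the experiment as a block, and none of the 20 passed with replicates 1 and 4 alone. None passed either without ileum day 4 replicate 3 or without ileum day 12 replicates 1, 3 or 4, whereas 7 passed without ileum day 4 replicate 1 and 6 without replicate 4. The change over time did not differ between the tissues for any Hox gene or any gene at all with edgeR, while 4 Hox genes and 739 genes had an unadjusted p under 0.05 and DESeq2 and limma called no Hox gene either. Without ileum day 4 replicate 1, 1 Hox gene passed that test.

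Libraries of colonic macrophages of CX3CR1-DTR recipients on day 14, which also carried epithelial RNA, showed a posterior Hox pattern with a different make-up. These libraries stand in a second table, were prepared and sequenced apart and differ from the day 12 colon in recipient line and day, and these cannot be told apart. Values here are reads per 10000000 reads on genes, and the second fit held 11718 genes, 13 libraries and 14 of the Hox genes. All 39 genes summed to a median of 13760.3 against 10326 in colon of day 12. Posterior genes made up a median of 88.9% of the Hox reads, and the HoxC genes together had 0 to 4.39 reads. Against the graft 13 of 14 Hox genes were higher and Hoxb4 lower, where 75.5% of all genes passed (39.5% higher, 36.0% lower), and colon of day 12 gave 13 and 1 in the same fit, where 57.7% of all genes passed (38.3% and 19.5%). Of these 14 genes only Hoxb4 reached the level of the filter in graft libraries. The 13 others could be tested only because they were high in colonic libraries, so both counts of higher genes are no support for a pattern.

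Between both colonic groups 10 of the 14 genes passed, 3 higher and 7 lower in CX3CR1-DTR recipients, with 60.7% of all genes passing (25.2% higher, 35.4% lower) and a median of -0.11 on the log2 scale. Among the lower genes, Hoxa3, Hoxa9, Hoxa10 and Hoxa13 reached the filter of 50 reads only in libraries of colon of day 12. They could be tested only because they were high there, so their calls are no support for a pattern. Hoxb6 and Hoxd13 reached it in CX3CR1-DTR recipients only in replicate 2 and replicate 5, so they needed colon of day 12 to enter. Among the higher genes, Hoxd10 and Hoxd11 reached it in colon of day 12 only in replicates 1 and 4. They needed CX3CR1-DTR libraries to enter, so their calls are no support either. Hoxb13 had 4306 at the lowest, 10193 at the median and 13279.6 at the highest in CX3CR1-DTR colon and 5534, 4139, 3718 and 6738 in colon of day 12 (log2 fold change 0.92 ± 0.31, adjusted p = 0.017). Its ranges overlapped, and the call was lost without colon day 12 replicate 2 (0.84) or 3 (0.82). Hoxd10, a patterning gene of the hindlimb nerves, had 119 at the lowest, 178 at the median and 232 at the highest against 54.1, 0, 6.52 and 55.7 (log2 fold change 2.55 ± 0.60, adjusted p = 0.0026). Hoxd11 had 65.4 at the lowest, 289 at the median and 369.8 at the highest against 88.3, 0, 6.52 and 87.9 (log2 fold change 2.44 ± 0.74, adjusted p = 0.012). For both genes the low values of day 12 were those of colon replicates 2 and 3, from experiment 2. Over colon of days 4 and 8, Hoxd10 had 41.0 to 113 and Hoxd11 66.6 to 194.

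Hoxa9 was lower in each CX3CR1-DTR library, with 14.2 at the lowest, 27.3 at the median and 32.7 at the highest against 593, 745, 673 and 484 (log2 fold change -4.60 ± 0.28, adjusted p = 1.9e-08). Hoxa10 had 8.17 at the lowest, 23.9 at the median and 49.8 at the highest against 544, 634, 558 and 451 (log2 fold change -4.36 ± 0.37, adjusted p = 7.5e-07). Hoxd13 had 8.17 at the lowest, 22.7 at the median and 80.6 at the highest against 245, 201, 67.3 and 577 (log2 fold change -3.04 ± 0.63, adjusted p = 0.0011). For Hoxa9 and Hoxa10 no library overlapped, although Hoxa10 was counted on different transcripts in both tables (2157 and 2561 exonic bases, the same 3′ end), and the ranges of Hoxd13 overlapped through colon day 12 replicate 3. Genes outside the clusters went both ways. Of 27 tested Hox cofactors, ParaHox and Evx genes and chromatin regulators, 11 passed as higher and 9 as lower in CX3CR1-DTR colon. Their median log2 fold change was 0.44, and 60.7% of all genes passed. Of 20 listed chromatin regulators, Psip1 and Rnf2 were at the floor in every CX3CR1-DTR library, while all 20 rose above it in colon of day 12. Hoxa3 (log2 fold change -3.10 ± 0.51, adjusted p = 0.00018), Hoxb6 (log2 fold change -2.34 ± 0.50, adjusted p = 0.0014) and Hoxb4 (log2 fold change -2.05 ± 0.40, adjusted p = 0.00043) were also lower. Hoxa13 was lower by a small margin (log2 fold change -1.24 ± 0.49, adjusted p = 0.045), and this call was lost without colon day 12 replicates 2, 3 or 4 or CX3CR1-DTR replicates 3, 4, 5 or 6, at log2 fold changes from -1.28 to -0.94. The other 4 genes did not pass, namely Hoxb9 (log2 fold change 0.51 ± 0.23, adjusted p = 0.08), Hoxa7 (log2 fold change -0.48 ± 0.20, adjusted p = 0.055), Hoxa5 (log2 fold change 0.19 ± 0.53, adjusted p = 0.78) and Hoxa11 (log2 fold change -0.52 ± 0.51, adjusted p = 0.39). Hoxa7 passed without colon day 12 replicate 4 or CX3CR1-DTR replicate 1, each at -0.55, and Hoxa5 turned to -0.06 without colon day 12 replicate 2 and to -0.10 without CX3CR1-DTR replicate 5. Epithelial markers were 2.71 to 3.25% of the reads in CX3CR1-DTR libraries and 2.40 to 3.49% in colon of day 12, ranges that overlap, and Hoxb13 gave 34.7 and 17.8 reads per 1000 epithelial reads at the median.

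**Figure D5:**
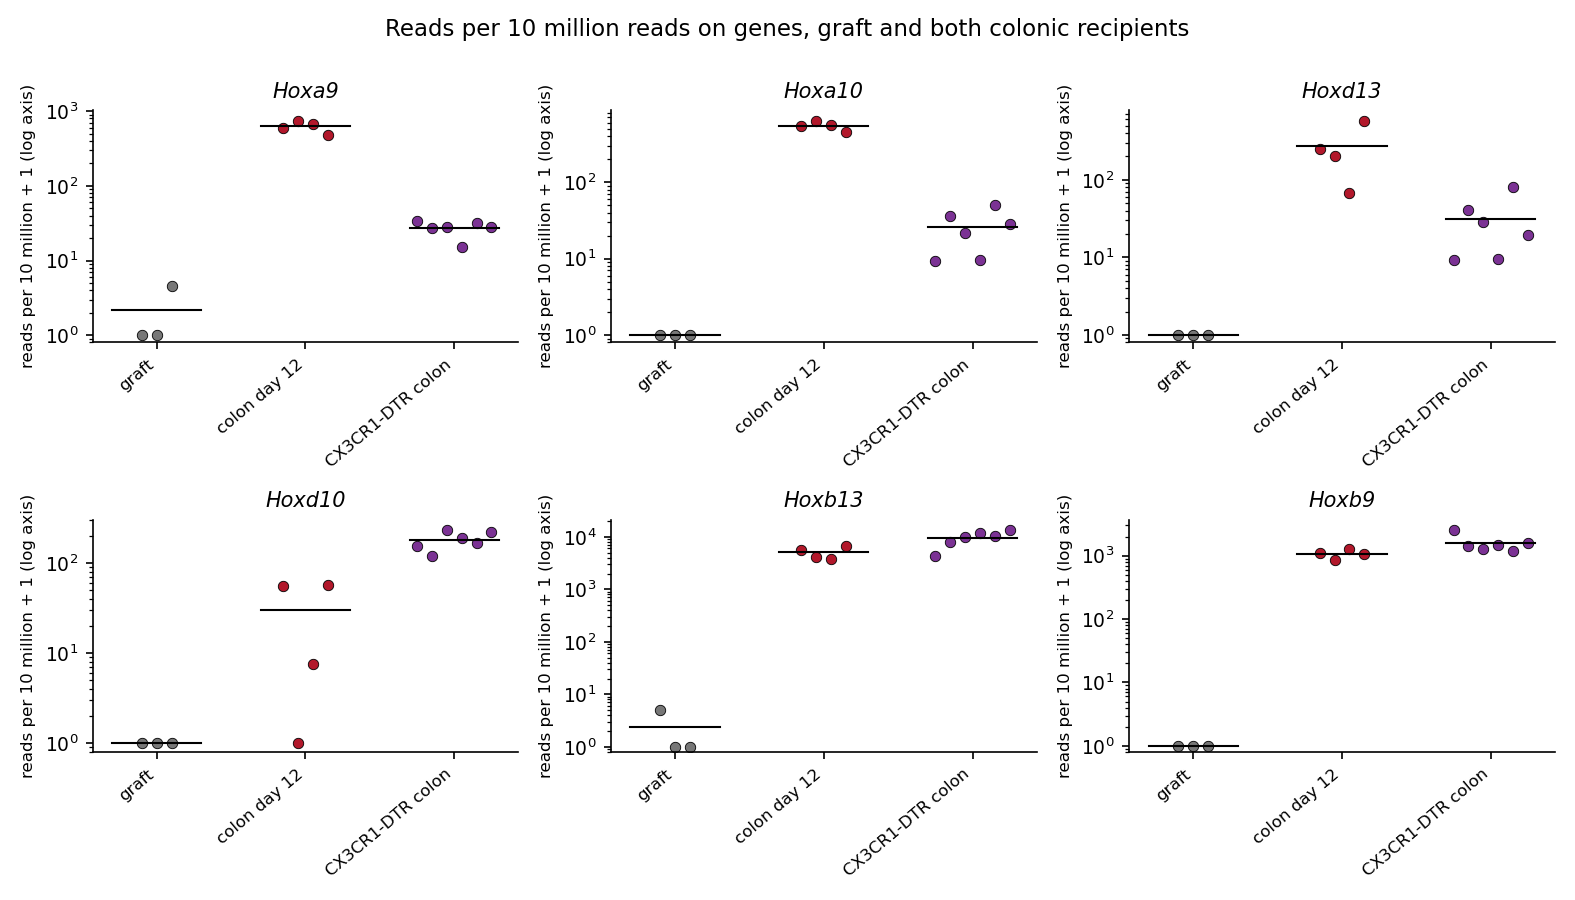
Reads per 10000000 reads on genes plus 1, on a log axis, for 6 Hox genes in the 3 graft libraries, the 4 colonic libraries of day 12 and the 6 CX3CR1-DTR libraries, with points for libraries and lines for means. Hoxa9 and Hoxa10 are lower in all CX3CR1-DTR libraries than in colon of day 12, Hoxd10 is higher in all of them, and the Hoxb13 ranges overlap.

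Of 37 listed Hox cofactors, ParaHox and Evx genes and chromatin regulators of the clusters, 27 were tested. Between colon and ileum 6 passed on day 8 (22.2%, 2 higher in colon and 4 in ileum) and 8 on day 12 (29.6%, 3 and 5), below the 35.0% and 32.5% of all genes, so these counts are no result about the list. Cdx1, a caudal factor of the hindgut epithelium, was at 0 in the graft libraries and had 3042 ± 403 (SD, n = 3) normalized reads in colon and 628 ± 146 (SD, n = 4) in ileum on day 8 (log2 fold change 1.97 ± 0.37, adjusted p = 0.0007). Cdx2, its partner in the intestine, was higher in colon on day 12 (1.47 ± 0.43, adjusted p = 0.011). Both are genes of the epithelium, whose marker list moved the same way, and its part in these differences was not tested.

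The TALE cofactors bind DNA beside Hox proteins. Meis2, with 4.68 to 6.75 normalized reads in colon and 26.8 to 70.5 in ileum on day 8 (log2 fold change -3.26, adjusted p = 0.028), and Pbx3 (-1.60 ± 0.36, adjusted p = 0.0019) were higher in ileum. Among chromatin regulators Pcgf2, a Polycomb subunit, was higher in colon on day 12 (1.29 ± 0.31, adjusted p = 0.0031), and Psip1, which tethers the MLL complex that keeps Hox genes active, was higher in ileum (-1.21 ± 0.43, adjusted p = 0.032).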

How the data were processed

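The authors made 3′ RNA-seq libraries by a derivation of MARS-seq, sequenced them, aligned unique reads to mm9 with HISAT 0.1.6 and counted exonic reads on the gene's strand with HOMER, per the study's methods and the submitters' processing notes. The deposited values are raw read counts, 1 transcript per gene, in 2 tables of 24411 and 24421 genes that share 24148. A further 52 columns of the second table have no sample here and were not used. Counts were fitted with edgeR 4.0.16 (R 4.3.3, TMM, quasi-likelihood test, Benjamini-Hochberg adjustment), 25 libraries and 7 groups in the first fit. The second fit joined the graft, colon of day 12 and CX3CR1-DTR colon (13 libraries, shared genes). Genes needed 50 normalized reads (per 10000000 mapped reads, in the second fit per 10000000 on genes) in 3 libraries. DESeq2 1.42.0 and limma 3.58.1, on log2 of normalized reads plus 50, were alternatives.

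The date label of ileum day 8 replicate 2 was read as a slip of the year, and replicates were numbered in accession order. The labels give 6 CX3CR1-DTR libraries where the study lists 4 repeats without naming them, and all 6 were used. Among 51 pairs of libraries of 1 group the closest gave a chi-square of 5.21 per degree of freedom, so none was a repeat of another. Hox members were taken by symbol alone, and gene lists were chosen with earlier results of these data known. All Hox genes that entered the fit were named, those below it by their highest count (1 of them is not reported here), and among listed regulators the 6 with the largest absolute log2 fold change that passed between colon and ileum. Scripts were tested on simulated counts. Promoter windows came from the mm9 genome at the start of the counted transcript.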

Additional observations from a re-analysis of the deposited data

Results flagged for a closer look

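Among 114 groups of values tested for a library far from the others, 11 held one, where chance gives about 1 in 20. Of the genes lower in colon, Hoxb6 had 237 normalized reads in colon day 12 replicate 1 with the next library at 57.7, Hoxc6 had 8.25 in colon day 12 replicate 4 with the next at 1.22, and Hoxc8 had 18.1 in the same library with the next at 1.95. In ileum Hoxb7 had 88.4 in day 8 replicate 4 with the next at 46.1, and Hoxd11 had 21.3 in day 4 replicate 2 with the next at 3.30. Hoxa13 and Hoxd11 each had 2.71, which was below the floor of detection, in ileum day 8 replicate 1 and 0 in the other 3. The anterior share of Hox reads was 13.1% in ileum day 8 replicate 4 and 8.27% in the next library.

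In CX3CR1-DTR colon, per 10000000 reads on genes, Hoxa9 had 14.2 in replicate 4 with the next at 26.4, Hoxb6 had 61.5 in replicate 2 with the next at 32.7, and Hoxb9 had 2517 in replicate 1 with the next at 1593. The colonic library of day 8 that was left out of the comparisons held 2476 normalized reads on Hox genes, above the highest graft library at 252.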

How the results depend on the processing

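Over 64 reported fold changes, settings other than leaving out a library left the direction and the call as they were in 609 of the fits, lost the call in 50, gained one in 14 and turned the direction in 5. Leaving out 1 library gave 1295, 100, 10 and 3. The turned values were those of Hoxa5 on day 8 (-0.62), Hoxa3 on day 12 (-0.72) and Hoxa5 on day 12 (-0.35) when scaled to epithelial markers, Hoxb4 between graft and ileum on day 4 with replicates 1 and 4 alone (0.25) or without replicate 2 (0.05), and Hoxa5 between both colonic groups with limma (-0.01) and without colon replicate 2 (-0.06) or CX3CR1-DTR replicate 5 (-0.10), its leave-one-out range ending at 0.45. The cause was not tested. Library totals without TMM moved the median of all genes between colon and ileum from -0.05 to 0.24 on day 8 and between graft and colon on day 4 from 0.21 to -0.12, with 19 and 15 Hox genes passing as before.

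On day 4 the count of 1 between colon and ileum became 7 with limma, 7 with the experiment as a block, 0 with the compared groups alone, 13 with ileum replicates 1 and 4 alone and 10 when scaled to epithelial markers. Between ileum on days 4 and 12 the count of 3 became 5 with DESeq2 and 0 with limma, the compared groups alone, all 4 colonic libraries of day 8, ileum replicates 1 and 4 alone, the experiment as a block or epithelial scaling. A filter of 10 normalized reads, or none, tested more genes, and passed 23 of 29 and 24 of 35 between graft and colon on day 4, 22 of 23 and 25 of 33 between graft and colon on day 12, and 16 of 23 and 20 of 33 between both colonic groups. Leaving out 1 library at a time gave 0 to 8 genes between colon and ileum on day 4, 16 to 20 on day 8, 11 to 17 on day 12, 14 to 17 between graft and colon and 16 to 19 between graft and ileum on day 4, 0 to 7 over time in ileum, 0 to 1 for the change over time between tissues, and 8 to 11 between both colonic groups. It gave 0 each time over time in colon and 14 each time between the graft and either colonic group of the second fit.

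Per 10000000 reads on genes the median Hox sum was 12549, 12777 and 10326 in colon and 4621, 2559.7 and 3697 in ileum on days 4, 8 and 12. With more than 10 counts in place of more than 3, the median number of Hox genes detected was 1 in the graft, 15 and 13 in colon on days 4 and 8, 11 and 12.5 in ileum on the same days and 7.5 in CX3CR1-DTR colon, so depth limits the genes that can be described.

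The tags that colonic and ileal libraries of days 8 and 12 share gave 7 pairs, whose deviations correlated at 0.05 to 0.52, with 6 over 0.1, and 5 of the 7 colonic libraries correlated best with their own number, a hint from the data and not from the design. With the replicate block 20 of 20 genes passed on day 8, Hoxa5 among them (1.20), and 17 on day 12, with Hoxa3 lost (0.91) and Hoxb7 gained (-1.44). Calls on day 8 were lost for Hoxa3 (1.36) and Hoxb2 (-2.31) with all 4 colonic libraries of that day, for Hoxb6 with library totals (-1.58) and limma (-0.72) and for Hoxc4 with limma (-0.60), and on day 12 for Hoxb5 with library totals (-1.46). Hoxa13 between both colonic groups did not pass with 6 settings, DESeq2 among them (-1.23), nor Hoxb13 with all 8 groups in 1 fit.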

Other observations

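The clusters also hold noncoding genes, of which 15 of 20 listed were in the first table and 4 entered the fit. Reads were counted on the strand of each gene, so that antisense partners were kept apart. In the graft Hottip, Hoxa11os and Hoxaas3 were at 0 in all 3 libraries, and Hotairm1, a transcript from the anterior end of HoxA that is known from myeloid cells, had 23.3 to 26.6 normalized reads.

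Between colon and ileum 3 of the 4 passed on day 8 and on day 12, all higher in colon, where 35.0% and 32.5% of all genes passed. Hoxa11os, antisense to Hoxa11, had 1742 to 1928 normalized reads in colon and 27.109 to 131 in ileum on day 8 (log2 fold change 4.67 ± 0.84, adjusted p = 0.00047 with edgeR) and 1139.7 to 1458 and 18.2 to 135 on day 12 (4.54 ± 0.81, adjusted p = 0.00059). Hoxa11 itself had at most 30 counts in any library. Hoxaas3 had 112 to 203 and 2.71 to 27.2 on day 8 (3.35 ± 0.62, adjusted p = 0.00061) and 157 to 296 and 10.4 to 13.6 on day 12 (4.16 ± 0.58, adjusted p = 0.0002). Hottip, transcribed next to Hoxa13, had 145 to 169.7 in colon on day 8 and was at the floor in every ileal library of that day. On day 12 it had 66.0 to 140.1 and 0 to 26.3 (3.40 ± 0.75, adjusted p = 0.0019). None of these ranges overlapped between tissues. Hotairm1 did not pass on either day (-0.59 ± 0.62, adjusted p = 0.49, and -0.76 ± 0.57, adjusted p = 0.33). The epithelial markers moved with these genes, and their part was not tested.

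In CX3CR1-DTR colon Hoxa11os had 4248 to 6553 reads per 10000000 reads on genes and was higher than in colon of day 12 (1.22 ± 0.19, adjusted p = 0.00014), while Hottip (-1.12 ± 0.36, adjusted p = 0.017) and Hoxaas3 (-0.57 ± 0.23, adjusted p = 0.048) were lower. Of the noncoding genes below the filter, Gm53 had 33.9 to 50.7 normalized reads in colon and 0 to 13.6 in ileum on day 8. Hotair, Hoxb5os, Hoxd3os1 and Hoxaas2 rose above the floor in at most 1 library of any group.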
